A study of Mus musculus with 4 samples.

Results

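Genes that move lipids between lipoproteins and cells were examined in livers of male mice fed a low-fat or a high-fat diet, with and without removal of liver macrophages. They were 10 listed genes. Lpl, Lipc, Pltp and Lcat encode enzymes and transfer proteins that act on lipoproteins in plasma. Mttp encodes a protein of lipoprotein assembly, Vldlr, Scarb1 and Lrp1 encode receptors, and Abca1 and Abcg1 encode cholesterol exporters. Every probe set whose platform annotation gave exactly 1 gene symbol equal to a member was taken, which gave 23 of the 45101 probe sets on the array and covered 9 of the 10 genes. Lipc, hepatic lipase, is not analysed here.

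All mice were C57BL/6J males, 8 to 12 weeks old when the diets began. The diets supplied 10% or 45% of energy as fat for 20 weeks, and palm oil stood in for lard in both. In the last week the mice received intraperitoneal injections of clodronate liposomes, which kill the phagocytes that take them up, or of phosphate-buffered saline (PBS). RNA of 8 mice per low-fat group and of 10 mice per high-fat group was pooled, so that low-fat PBS, low-fat clodronate, high-fat PBS and high-fat clodronate each had 1 array. The controls received no liposomes, so an effect of the liposomes cannot be told apart from that of clodronate or of macrophage loss. The spread between mice was not measured.

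As background, lipids travel in blood as lipoproteins. The liver packs triglyceride onto apolipoprotein B and secretes the particles, lipases in blood vessels release their fatty acids, and transfer proteins and an acyltransferase remodel the high-density particles. Liver receptors then take up remnants and cholesterol, and ATP-binding cassette transporters pass cholesterol from cells to apolipoproteins. In the adult liver, hepatocytes make most of these proteins, while macrophages are a known source of lipoprotein lipase and use Abca1 and Abcg1 to shed cholesterol.

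Values are on the log2 scale, so that a difference of 1 is a doubling, and a value below 4 was taken as too dim to measure. Of the 23 probe sets, 16 were at 4 or more on all 4 arrays, 2 on some arrays, and 5 were below 4 on every array. All 9 genes had a probe set that could be measured on all 4 arrays, and the one with the highest mean stood for the gene. Levels of different genes were not compared, since probe sets differ in how brightly they hybridise. The array medians over all probe sets lay between 2.73 and 2.79. Only 33.5% to 34.5% of probe sets were at 4 or more on an array, so these medians describe dim probe sets. Over the genes tested, the median difference between the clodronate pools was -0.08 (high-fat minus low-fat, log2). The difference between 3′ and 5′ probe sets of Actb, a measure of RNA integrity, lay between 1.22 and 1.24 on all 4 arrays. Hepatocyte genes marked the tissue as liver, with all 11 measured markers at 4 or more on every array. The labelled depletion was also visible: the summed linear signal of 9 Kupffer cell markers, genes of the resident liver macrophages, was 6079 with PBS and 1496 with clodronate in the low-fat pools, and 5606 and 1325 in the high-fat pools. The clodronate sums came mostly from Slc40a1, an iron exporter, at 10.34 and 10.10, and only 2 and 3 of the 9 markers were at 4 or more in those pools.

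Lpl and Pltp were both highest in the low-fat PBS pool and lowest in the high-fat clodronate pool, and Lpl spread much further. The other 7 genes each stayed within a range of 0.50 (log2) or less across the 4 arrays. In the additive model of both factors, which averages each effect over the other factor, Lpl and Pltp were the 2 of 9 members that fell after clodronate, and also the 2 of 9 that fell on the high-fat diet (limma, Benjamini-Hochberg adjusted p under 0.05 over 8650 genes). No member rose in either effect, and 0 did so at an unadjusted p under 0.05, which 139 of the 8650 genes did for clodronate and 481 for diet. Among all genes tested, 0.971% fell and 0.116% rose after clodronate, and 0.821% fell and 0.867% rose on the high-fat diet. The median over the 9 members was -0.02 for clodronate and 0.01 for diet, against 0.00 and -0.04 over all genes. These p-values rest on 4 arrays and 1 residual degree of freedom per gene. With 1 array per group, that residual is the change of the clodronate difference from one diet to the other. Noise, which may be technical, and a true dependence on diet cannot be told apart in it. Both effects of a gene share this residual, and so have the same SE.

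**Figure D1:**
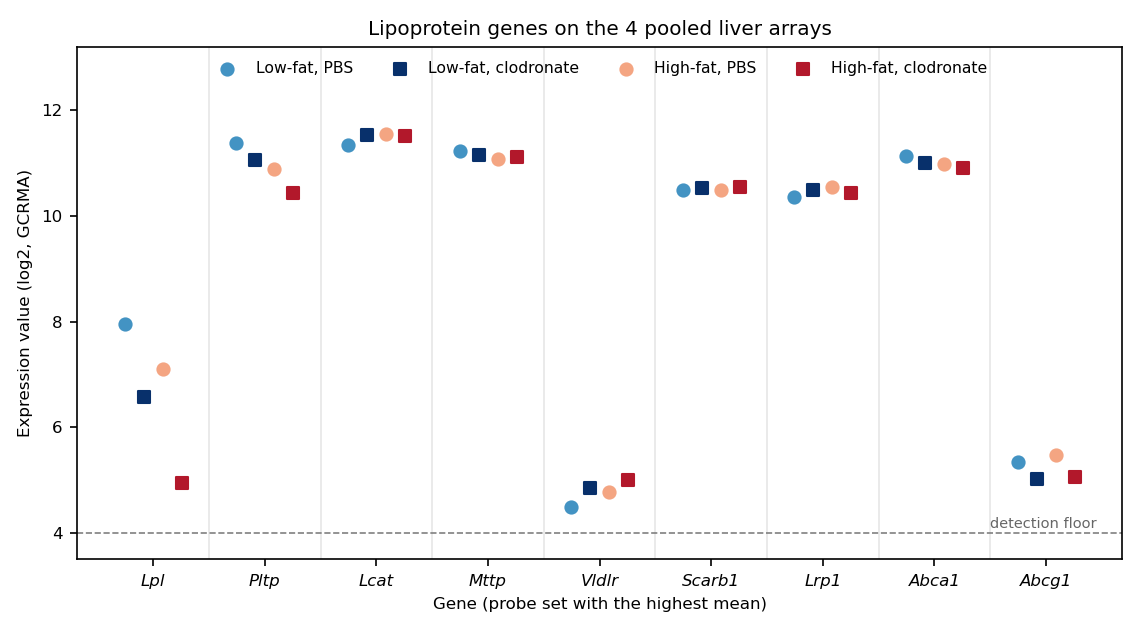
Expression value (log2, GCRMA) of the 9 measured lipoprotein genes on each of the 4 pooled liver arrays, with 1 point per array and the detection floor of 4 as a dashed line. Lpl spreads from 4.94 to 7.96 and Pltp from 10.44 to 11.39, while the points of the other genes lie close together.

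Lpl encodes lipoprotein lipase, the enzyme that frees fatty acids from circulating triglyceride-rich particles at the vessel wall. Its value was 7.96 in the low-fat PBS pool, 6.57 in the low-fat clodronate pool, 7.11 in the high-fat PBS pool and 4.94 in the high-fat clodronate pool. Both clodronate pools were below both PBS pools, and on either injection the high-fat pool was below the low-fat pool. After clodronate the signal was 2.63-fold lower on the low-fat diet and 4.52-fold lower on the high-fat diet. Averaged over diets it fell by 1.79 ± 0.20 (log2, SE; limma, Benjamini-Hochberg adjusted p = 0.00125), rank 42 from the lowest of the 8650 genes. The adjusted p ranged from 0.000567 to 0.126 over 10 alternatives and missed 0.05 in 1 of them, a prior variance that did not depend on the mean. On the high-fat diet Lpl was 1.81-fold lower with PBS and 3.10-fold lower with clodronate. Averaged over injections it fell by 1.24 ± 0.20 (log2, SE; limma, Benjamini-Hochberg adjusted p = 0.0154), rank 17 from the lowest. Here the adjusted p ranged from 0.00926 to 0.322 and missed 0.05 in 4 of 10 alternatives.

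A second, dimmer probe set of Lpl fell in the same order of conditions. It was at 5.82 and 4.31 in the low-fat PBS and clodronate pools and at 5.00 and 3.92 in the high-fat PBS and clodronate pools. It was thus 2.85-fold lower after clodronate on the low-fat diet and at least 2.00-fold lower on the high-fat diet, where the clodronate value was below the floor. On the high-fat diet it was 1.77-fold lower with PBS and at least 1.24-fold lower with clodronate. When each probe set was tested separately, with values below 4 as deposited, this dimmer one passed in neither effect. Its means there were -1.29 for clodronate and -0.61 for diet. With the mean of both probe sets in place of the brighter one, the diet difference between the clodronate pools was -1.01 rather than -1.63 (log2). The 2 probe sets differed in which diet showed the larger clodronate difference. The clodronate difference on the high-fat diet minus that on the low-fat diet was -0.78 (log2) in the brighter probe set and 0.51 in the dimmer one, with values below 4 set to 4. Whether the clodronate difference depended on diet was not tested, since 4 arrays leave no residual degree of freedom for it.

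**Figure D2:**
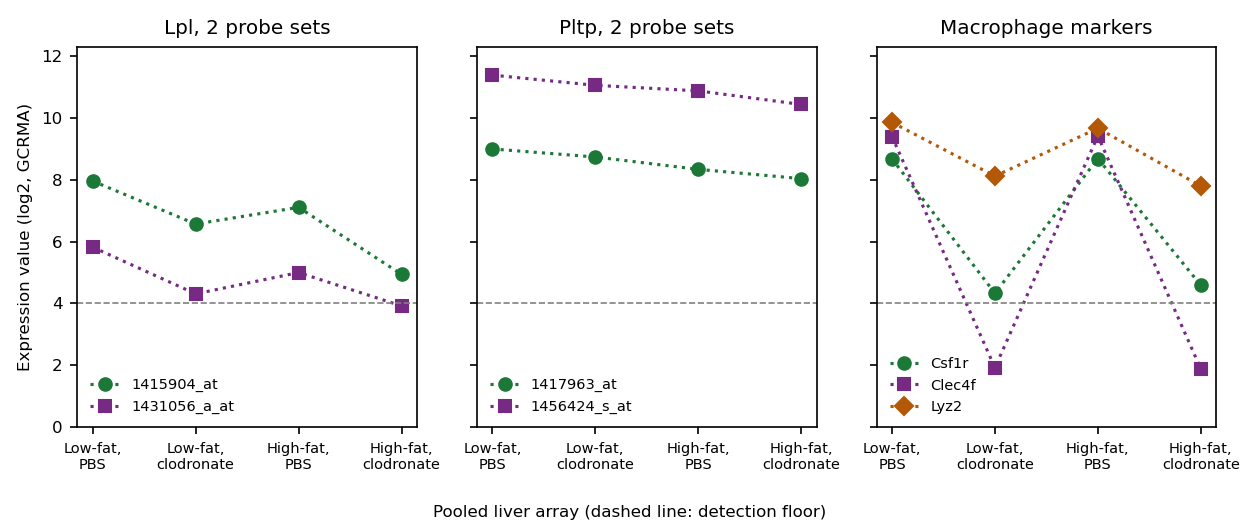
Expression value (log2, GCRMA) on each of the 4 pooled arrays for both probe sets of Lpl, both of Pltp and 3 macrophage markers, with the detection floor of 4 dashed and dotted lines joining the values of a probe set only to guide the eye. Both Lpl probe sets are lowest in the high-fat clodronate pool, and the macrophage markers are lower in both clodronate pools than in both PBS pools.

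The fall of Lpl after clodronate came with that of the macrophage markers. Of 9 Kupffer cell markers 9 fell, and of 11 measured pan-macrophage markers 10 fell (limma, Benjamini-Hochberg adjusted p under 0.05), against 0.971% of all genes tested. The calls used values below 4 as deposited. With such values set to 4, Timd4 differed by only -0.04 in the low-fat and 0.00 in the high-fat pools. Timd4 and Marco were at 4 or more in the low-fat PBS pool alone, so the filter chose them for being high there. Clec4f, Vsig4, Folr2 and Cd163, and the pan-macrophage markers C1qa, C1qc, Adgre1 and Cd68, were at 4 or more in the PBS pools alone. They too entered through the groups where they were high, so these counts describe the depletion and are not independent evidence of it. Many clodronate values were below 4, which leaves only bounds. With such values set to 4, the Kupffer cell markers had a median difference of -1.79 in the low-fat and -1.85 in the high-fat pools, and the pan-macrophage markers -2.88 and -3.22. The summed linear signal of the 12 pan-macrophage markers, of which Cd14 was below 4 on all arrays, was 5669 with PBS and 1001 with clodronate in the low-fat pools, and 5269 and 1016 in the high-fat pools. Clec4f, a lectin receptor that defines Kupffer cells, was below 4 in both clodronate pools, at 1.92 and 1.88. In pooled tissue, fewer cells of a type and less RNA per cell cannot be told apart. How much of the Lpl signal came from macrophages was not tested. Beside the diet difference of Lpl the markers were mixed. Between the PBS pools Csf1r, the receptor of macrophage colony-stimulating factor, was at 8.68 and 8.69, and the 11 pan-macrophage markers had a median difference of -0.14, from -0.42 to 0.31. The 9 Kupffer cell markers had a median of -0.11, but 3 of them, Marco, Folr2 and Cd163, were 1.5-fold or more lower on the high-fat diet. Cd163, a haemoglobin scavenger receptor, was at 7.95 and 6.77 there. Between the clodronate pools many marker values were below 4 and were set to 4. There the pan-macrophage markers had a median diet difference of 0.00, from -0.33 to 1.97, with 2 at 1.5-fold or more higher and 0 lower. The Kupffer cell markers had a median of 0.00, from -0.23 to 1.82, with 1 higher and 0 lower by that size. The part of these cells in the diet difference of Lpl was not tested. Lipoprotein lipase is also a product of fat cells, and 4 of 6 listed fat cell markers had a value. Adipoq, Lep and Retn were below 4 on all 4 arrays, with 2.25 as their highest value. Fabp4 lay between 7.82 and 8.02, with means of -0.09 for clodronate and 0.11 for diet that did not pass. The part of fat cells in the Lpl signal was not tested.

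Pltp encodes phospholipid transfer protein, which moves phospholipid from triglyceride-rich to high-density particles. Its value was 11.39 and 11.06 in the low-fat PBS and clodronate pools and 10.88 and 10.44 in the high-fat PBS and clodronate pools. Both high-fat pools lay below both low-fat pools. On the high-fat diet Pltp was 1.43-fold lower with PBS and 1.54-fold lower with clodronate, and averaged over injections it fell by 0.57 ± 0.07 (log2, SE; limma, Benjamini-Hochberg adjusted p = 0.005, from 0.00249 to 0.343 over 10 alternatives). After clodronate Pltp was 1.26-fold lower in the low-fat and 1.36-fold lower in the high-fat pools. Averaged over diets it fell by 0.39 ± 0.07 (log2, SE; limma, Benjamini-Hochberg adjusted p = 0.0418), but the adjusted p ranged from 0.0304 to 0.85 and missed 0.05 in 6 of 10 alternatives. The macrophage marker values given beside Lpl move with this difference too, and their part in it was not tested. A second probe set was highest in the low-fat PBS pool and read 8.74 in the low-fat clodronate, 8.34 in the high-fat PBS and 8.04 in the high-fat clodronate pool. It repeated the order of the 4 pools, with differences of -0.26 and -0.30 for clodronate and of -0.66 and -0.70 for diet. When each probe set was tested separately, this one passed in neither effect, with means of -0.28 for clodronate and -0.68 for diet.

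Pltp and Abca1 are both textbook targets of the liver X receptors, nuclear receptors that sense cholesterol derivatives, and here Pltp passed both tests and Abca1 neither. Whether the genes differ in response was not tested. Their upstream sequences are shown because of this shared background. RefSeq's table for GRCm38.p6 held windows for 7 of the 10 genes. The 250 bases before the transcript start are printed on the gene's strand, at chr2:164857709-164857958 for Pltp and chr4:53159896-53160145 for Abca1, both on the minus strand. Capitals mark GC boxes (GGGCGG or its reverse complement), TATA boxes (TATAAA) and, in Abca1, the paired half-sites GGTTANNNNNGGTCA, read here on the opposite strand, a spacing of the kind liver X receptors are known to bind.
Pltp: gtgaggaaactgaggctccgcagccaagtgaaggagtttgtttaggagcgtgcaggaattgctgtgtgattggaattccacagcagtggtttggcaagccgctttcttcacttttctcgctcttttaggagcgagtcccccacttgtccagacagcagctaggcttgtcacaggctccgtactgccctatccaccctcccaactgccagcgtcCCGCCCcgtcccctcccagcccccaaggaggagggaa
Abca1: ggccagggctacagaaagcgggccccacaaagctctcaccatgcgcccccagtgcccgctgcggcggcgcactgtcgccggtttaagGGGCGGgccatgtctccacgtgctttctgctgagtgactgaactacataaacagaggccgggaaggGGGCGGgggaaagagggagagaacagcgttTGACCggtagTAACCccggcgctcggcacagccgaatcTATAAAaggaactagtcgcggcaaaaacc
Positions count back from the transcript start. The Pltp window held 1 GC box, at position -37, and no TATA box or paired half-site. The Abca1 window held 2 GC boxes, 1 TATA box at position -29 and 1 paired half-site at position -67. The palindromic E-box CACGTG was in the Abca1 window and not in the Pltp window, and was held by 6.02% of all windows. On either strand, 32.7% of all 32851 windows of this length held a GC box, 12.4% a TATA box and 0.0457% the paired half-site, a pattern that was written down with the Abca1 sequence in view. A match describes letters in a window, and binding was not measured.

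Lcat encodes the acyltransferase that esterifies cholesterol on high-density lipoprotein. Its single probe set read 11.34 in the low-fat PBS pool and between 11.51 and 11.55 in the other 3 pools. The low-fat PBS pool was thus the lowest, by 0.19 against low-fat clodronate and by 0.21 against high-fat PBS. Neither averaged effect passed, with means of 0.08 for clodronate (95% interval of the model -0.09 to 0.25) and 0.10 for diet (-0.08 to 0.27). Mttp encodes the microsomal triglyceride transfer protein, which loads lipid onto apolipoprotein B in the endoplasmic reticulum. It lay between 11.07 and 11.23 on the 4 arrays, with mean differences of -0.02 for clodronate (-0.18 to 0.15) and -0.10 for diet (-0.26 to 0.06). Its second probe set lay between 9.90 and 10.11, and its clodronate difference was of the opposite sign on each diet.

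**Figure D3:**
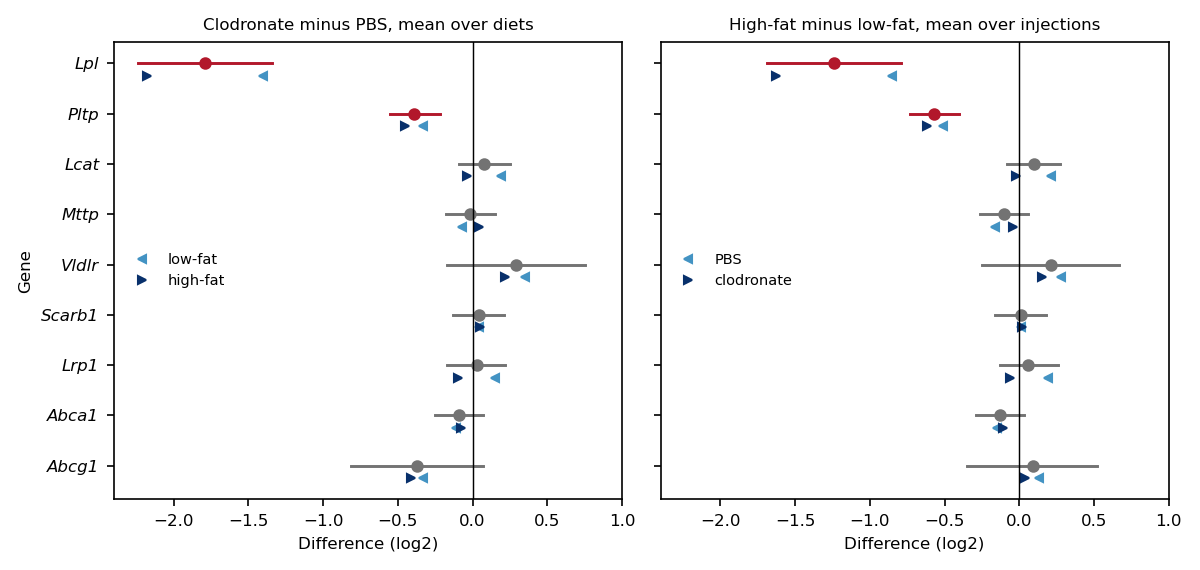
Mean difference (log2) of each gene for clodronate minus PBS over both diets and for high-fat minus low-fat diet over both injections, as points with the 95% interval of the additive limma model, and in red where the adjusted p was under 0.05. Triangles under each point give the 2 differences that were averaged, and Lpl and Pltp are the 2 genes whose intervals lie wholly below 0 in both plots.

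Among the receptors, Scarb1 varied least. It encodes the high-density lipoprotein receptor that takes cholesteryl ester into hepatocytes, and it read 10.49, 10.53, 10.50 and 10.54 in the low-fat PBS, low-fat clodronate, high-fat PBS and high-fat clodronate pools. The model's 95% interval ran from -0.13 to 0.21 for clodronate and from -0.16 to 0.18 for diet. Its other 2 probe sets stayed between 10.19 and 10.44. Lrp1, an endocytic receptor for remnant particles, lay between 10.35 and 10.54, with a mean clodronate difference of 0.03 (-0.17 to 0.22) and a mean diet difference of 0.06 (-0.13 to 0.26). A dimmer Lrp1 probe set was higher after clodronate on each diet, by 0.20 and 0.22, where the brighter one gave 0.15 and -0.10.

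Vldlr, the receptor for very-low-density particles, was dim in these livers. Of its 6 probe sets 4 were below 4 on all arrays, and 1 passed the floor in the high-fat pools alone, at 4.39 with PBS and 4.51 with clodronate against 3.73 and 3.82 in the low-fat pools. The representative, whose name ends in _x_at for probes that can match other transcripts, read 4.49 and 4.85 in the low-fat PBS and clodronate pools and 4.77 and 4.99 in the high-fat PBS and clodronate pools. Its values were higher after clodronate and on the high-fat diet, but the averages of 0.29 (-0.17 to 0.75) and 0.21 (-0.25 to 0.67) did not pass.

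The exporters did not pass in either effect. Abca1, which hands cholesterol and phospholipid to apolipoprotein A-I, read 11.13, 11.01, 10.98 and 10.91 in the low-fat PBS, low-fat clodronate, high-fat PBS and high-fat clodronate pools. Its means were -0.09 (-0.25 to 0.07) for clodronate and -0.13 (-0.29 to 0.03) for diet. The other 2 Abca1 probe sets gave mean clodronate differences of -0.04 and 0.12. Abcg1, which exports cholesterol to mature high-density particles, was lower in both clodronate pools, at 5.01 and 5.05, than in the PBS pools, at 5.33 and 5.47. These differences of -0.33 and -0.41 averaged -0.37 (-0.81 to 0.07; limma, Benjamini-Hochberg adjusted p = 1.00), and the unadjusted p was 0.0882. The macrophage markers moved with this difference as well, and their part in it was not tested. The diet mean of Abcg1 was 0.09 (-0.35 to 0.52), and its second probe set was below 4 throughout.

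Counted by size, without a test, Lpl was the 1 of 9 members that was 1.5-fold or more lower after clodronate on the low-fat diet, where 1.63% of all genes were that much lower and 1.75% that much higher. It was again the 1 of 9 on the high-fat diet, where 2.98% of genes were lower and 0.636% higher. Between the PBS pools Lpl was the 1 of 9 that was lower on the high-fat diet, against 1.47% of all genes lower and 2.15% higher. Between the clodronate pools Lpl and Pltp were lower, 2 of 9, against 4.79% lower and 1.69% higher. Of the 9 members 0 were 1.5-fold or more higher in any of these 4 comparisons, which share arrays in pairs. The member medians were -0.07, -0.08, 0.01 and -0.04 in this order, and those of all genes 0.04, -0.05, 0.00 and -0.08. The split of all genes moved with the scaling. Between the clodronate pools 414 genes were lower and 146 higher as deposited, 254 and 229 after centring, and 214 and 246 after quantile normalization. On the high-fat diet, 258 genes were lower and 55 higher after clodronate as deposited, 189 and 81 after centring, and 172 and 93 after quantile normalization. On the low-fat diet the numbers were 141 and 151, then 158 and 122 after centring, and 170 and 99 after quantile normalization.

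**Figure D4:**
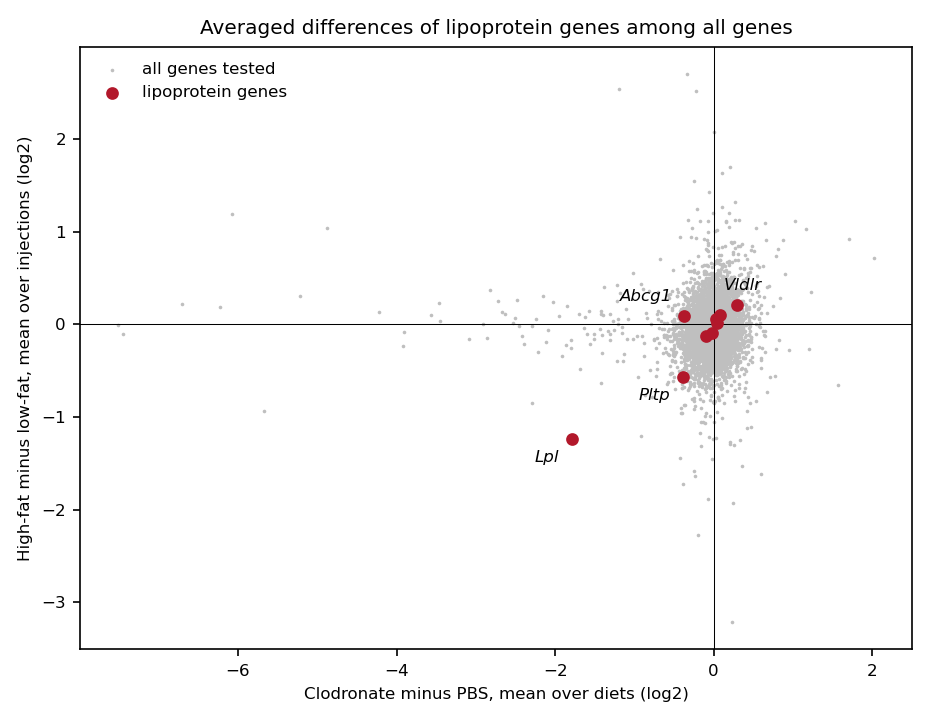
Mean difference (log2) for clodronate minus PBS over both diets against that for high-fat minus low-fat diet over both injections, with 8650 genes in grey and the 9 lipoprotein genes in red. Lpl lies at -1.79 and -1.24, apart from the bulk of genes on both axes, and Pltp lies at the edge of the bulk.

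The genes that act beside the members were taken from 4 lists with 64 genes, of which 50 were measured, 5 were below 4 on all arrays and the remaining 9 are not analysed here. After clodronate 0 of the 50 passed in limma with Benjamini-Hochberg adjustment, and 4 were lower and 0 higher at an unadjusted p under 0.05, against 271 lower and 139 higher of all 8650 genes. On the high-fat diet 2 rose and 1 fell, with 5 lower and 5 higher at an unadjusted p under 0.05, against 660 lower and 481 higher of all genes.

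Among 15 measured genes of lipoprotein remodelling and lipase control, Lipg rose and Angptl8 fell on the high-fat diet. Lipg encodes endothelial lipase, a relative of lipoprotein lipase that acts on high-density particles. It read 4.81 and 4.95 in the low-fat PBS and clodronate pools and 6.01 and 5.74 in the high-fat PBS and clodronate pools, and rose by 0.99 ± 0.20 (log2, SE; limma, Benjamini-Hochberg adjusted p = 0.0445, from 0.0331 to 0.299 over 10 alternatives). That call was kept in 3 of the 10 alternatives and lost in the others. Angptl8, a secreted inhibitor of lipoprotein lipase that feeding induces, read 9.15 and 8.82 in the low-fat PBS and clodronate pools and 8.60 and 8.22 in the high-fat PBS and clodronate pools. It fell by 0.57 ± 0.10 (log2, SE; limma, Benjamini-Hochberg adjusted p = 0.0273, from 0.0165 to 0.336 over 10 alternatives). That call was kept in 6 of the 10 alternatives and lost in the others, and its clodronate mean of -0.36 did not pass. Gpihbp1, which holds lipoprotein lipase on capillary walls, and Angptl4, another of its inhibitors, had clodronate means of 0.21 and 0.18 without passing. Pcsk6, a protease of this list, had a diet mean of 0.30 without passing.

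Of 11 measured genes of particle assembly and secretion, 0 passed in either effect. Apob, the structural protein of these particles, had a clodronate mean of -0.14, and another probe set of it gave 0.21. Surf4, a cargo receptor of the secretory pathway, had -0.25, and its other 4 probe sets gave -0.08, -0.09, -0.15 and -0.21. Apobec1, which edits the Apob transcript, had 0.12 but lay at the floor, between 3.74 and 4.32. With diet, Tm6sf2, which takes part in the lipid loading of particles, had -0.47, Apobec1 -0.40, and Sort1, a sorting receptor, -0.19 with 0.34 in another probe set. Sort1 was also near the floor, between 3.91 and 4.45. At an unadjusted p under 0.05, 2 of the 11 were lower after clodronate and 1 was lower with diet.

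Of 10 measured genes of receptors and uptake, Cd36, a fatty acid and scavenger receptor, rose on the high-fat diet by 0.88 ± 0.10 (log2, SE; limma, Benjamini-Hochberg adjusted p = 0.00244, from 0.000758 to 0.299 over 10 alternatives). Msr1, a macrophage scavenger receptor for modified lipoproteins, read 5.73 and 4.83 in the low-fat PBS and clodronate pools and 5.22 and 4.19 in the high-fat PBS and clodronate pools. This is the order of conditions seen in Lpl, but the clodronate mean of -0.96 (limma, Benjamini-Hochberg adjusted p = 0.0729) and the diet mean of -0.57 did not pass. Mylip, which marks lipoprotein receptors for degradation, and Lrpap1, their chaperone, had clodronate means of -0.19 and -0.12, although 2 of the other 3 Lrpap1 probe sets were near 0 and the third was at 0.28. Snx17, a recycling adaptor, had a diet mean of -0.18.

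Of 14 measured genes of sterol efflux, storage and liver X receptor control, 0 passed. None was past an unadjusted p of 0.05 for clodronate, and with diet 1 was lower and 2 were higher. The largest clodronate means were 0.31 for Nceh1, which hydrolyses stored cholesteryl ester, 0.14 for Abcg8, a subunit of the exporter of cholesterol into bile, and -0.11 for Abca2. With diet these genes were led by Srebf1, a transcription factor of lipid synthesis that liver X receptors induce, at 0.32 (limma, Benjamini-Hochberg adjusted p = 0.0975), Abcg8 at 0.29 and Nceh1 at 0.22.

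Of 11 sinusoidal endothelial, 8 measured stellate and 11 hepatocyte markers, 0 passed in either effect in limma. At an unadjusted p under 0.05, 1 endothelial and 1 stellate marker were lower after clodronate, and with diet 1 stellate marker was lower and 1 hepatocyte marker was higher. Their clodronate medians were 0.07, 0.03 and -0.01. The single endothelial markers ran from -0.50 to 0.44, the stellate ones from -0.57 to 0.27 and the hepatocyte ones from -0.07 to 0.26. Of all 8650 genes, 271 were lower and 139 higher after clodronate at an unadjusted p under 0.05 in limma. With diet 660 were lower and 481 higher. The neutrophil genes S100a8 and S100a9 were above 4 in the low-fat clodronate pool alone, at 4.15 and 4.05. Ighm, an immunoglobulin chain of B cells, was at 6.14 and 6.80 in the low-fat PBS and clodronate pools and at 6.25 and 7.26 in the high-fat ones, and did not pass either. The 5 measured T and NK cell markers were below 4 on all arrays.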

How the data were processed

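Liver RNA of 4 groups was measured on 1 array per group, from 5 µg of pooled RNA with an integrity number above 8.0, per the labels' protocols. The authors deposited log2 expression values. The submitters' processing notes name GCRMA 2.24.1. The values entered unchanged, and scanner files were not analysed here. The array layout on slides and the scan order are not given in the sources used here, so no batch was tested. The number of arrays limits the precision.

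Of 45101 probe sets, 34958 carried 1 gene symbol in the platform annotation, 932 several and 9211 none. Entrez identifiers of 34754 were found in the RefSeq gene table of GRCm38.p6, and 0 symbols changed. For each of 18194 genes its brightest probe set over all arrays was kept, and 8650 genes that reached 4 on any array entered the tests. Differences between 2 arrays were taken with values below 4 set to 4 and have no test. The averaged effects came from an additive model in limma 3.58.1 (R 4.3.3), with values below 4 as deposited, a mean-dependent prior in eBayes (8.46 prior degrees of freedom) and Benjamini-Hochberg adjustment at 0.05. The model was also run on simulated data with independent noise and added clodronate changes. Those data held no dependence of the clodronate difference on diet, so the run cannot show how such a dependence would affect the calls. Promoter windows came from RefSeq. Python 3.11.15, numpy 2.4.6, pandas 2.3.3 and matplotlib 3.10.9 were used for the rest.

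The members and the gene lists were chosen with earlier results of these data known. All members were named. Of the other lists, genes that passed and the 3 with the largest mean difference per effect were named, and of the cell type lists those a statement turned on. Alternatives changed the floor (3 or 5), the scaling, the representative probe set, the filter, the prior, the unit tested and the treatment of values below 4.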

Additional observations from a re-analysis of the deposited data

Results flagged for a closer look

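In 3 genes the difference had opposite signs in the groups compared. With 1 array per group these differences of the differences were not tested. The share of all genes with opposite signs is not given here, so these 3 are not set apart from other genes. For scale, the median residual SD of the additive model over all genes tested was 0.0924 (log2). In this model a gene's residual SD is the size of its difference of differences divided by 2. Lcat differed after clodronate by 0.19 on the low-fat and by -0.04 on the high-fat diet, and between diets by 0.21 with PBS and by -0.02 with clodronate. Lrp1 differed after clodronate by 0.15 on the low-fat and by -0.10 on the high-fat diet, and between diets by 0.19 with PBS and by -0.06 with clodronate. Mttp differed after clodronate by -0.07 on the low-fat and by 0.04 on the high-fat diet. The contrasts share arrays, so the 2 entries of Lcat and of Lrp1 are the same difference of differences, -0.23 and -0.25 (log2). The opposite signs were not kept under every alternative. After centring, Lcat differed by 0.16 and 0.03 after clodronate and by 0.21 and 0.08 between diets, and Lrp1 by 0.19 and 0.04 between diets. After quantile normalization Lcat differed by 0.20 and 0.01 between diets. With the mean of probe sets, Lrp1 differed by 0.18 and 0.06 after clodronate and by 0.15 and 0.04 between diets, and Mttp by -0.02 and -0.02 after clodronate.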

How the results depend on the processing

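No paired analysis was possible because each group had 1 array, and leaving out an array leaves no residual degree of freedom. Of the 158 recomputed counts and medians, 126 kept their value within the limits set. After clodronate 2 members fell; 1 fell with the floor at 3, with the mean of probe sets, with no filter, with each probe set tested separately and with values below 4 set to 4, and 0 fell with a prior not dependent on the mean. On the high-fat diet 2 members fell; 1 fell with no filter, with each probe set tested separately and with values below 4 set to 4, and 0 with a prior not dependent on the mean. With that prior 39 genes fell and 0 rose after clodronate, and 0 fell and 0 rose on the high-fat diet. With values below 4 set to 4, 53 genes fell and 1 rose after clodronate, and 31 fell and 29 rose with diet. With no filter, 1 gene rose after clodronate, and 23 fell and 19 rose with diet. With each probe set tested, 2 rose after clodronate, and 33 fell and 27 rose with diet. With quantile normalization, and with the mean of probe sets, 6 genes rose after clodronate. Between the PBS pools 2 members were 1.5-fold or more lower with the mean of probe sets, and between the clodronate pools 1 was after centring and 1 after quantile normalization. The member median between the clodronate pools became 0.06 after centring. The median difference of the clodronate effect between diets became -0.01 after centring and 0.04 after quantile normalization. No member's averaged effect that passed changed sign. The causes of these changes were not tested.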
